A study of Mus musculus with 6 samples.

Results

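The genes examined here encode 10 secreted adhesive and matricellular glycoproteins: tenascin C (Tnc), periostin (Postn), SPARC (Sparc), SPARC-like 1 (Sparcl1), thrombospondins 1 to 4 (Thbs1, Thbs2, Thbs3 and Thbs4), fibronectin (Fn1) and vitronectin (Vtn). They were chosen by name, and every probe set annotated to 1 of them and to no other gene was taken. All 10 were represented on the arrays, by 18 of the 45037 probe sets tested, 6 genes by more than 1 probe set and 4 by a single one. Endosteal RNA and central bone marrow RNA were compared, with 3 arrays for each region. The femurs came from 3 C57BL/6 mice, all male and 8 weeks old. Every mouse had received saline by intraperitoneal injection, so that no untreated animal is included and no group differs in genotype or treatment. Central RNA came from the cells that buffered saline flushed out of the femoral shaft and that were pelleted before lysis, and endosteal RNA from what Trizol, a phenol-based lysis reagent, then dissolved from the emptied shaft. Muscle and periosteum had first been scraped and rubbed off the outside of the bone, and the ends of the shaft cut away. Endosteal RNA is therefore a mixture of every cell left in the shaft and is not a sorted cell type. In such bulk RNA, fewer cells of a type and less RNA per cell cannot be told apart.

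Matricellular proteins are secreted into the extracellular matrix, where they act mainly on cell adhesion, migration and growth factor activity and less as load-bearing structure. Fibronectin and vitronectin are adhesive glycoproteins that cells grip through integrins, the heterodimeric receptors that join the matrix to the cytoskeleton. In bone, SPARC, also called osteonectin, is an abundant non-collagenous protein that binds collagen and calcium, and periostin takes its name from the periosteum. Platelets store thrombospondin 1 in their granules, and the liver secretes the vitronectin and the soluble fibronectin of plasma.

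Promoter windows, from 250 bases before to 50 bases after an annotated transcription start, were listed by RefSeq (build GRCm38.p6) for 7 of the 10 genes, in 9 windows. Those of the 4 such genes called higher in endosteal RNA by their brightest probe set are shown, with 1 window for each gene. Whether these genes share regulation was not tested. Capitals mark matches, on either strand, to the TATA-type motif TATANAA, the RUNX core TGTGGT, the AP-1 motif TGANTCA or the cyclic AMP response element TGACGTCA. The strand printed is the gene's own, at chr3:54360857-54361156 (plus strand) for Postn, chr11:55420031-55420330 (minus strand) for Sparc, chr4:64046887-64047186 (minus strand) for Tnc and chr13:92794769-92795068 (minus strand) for Thbs4.
Postn: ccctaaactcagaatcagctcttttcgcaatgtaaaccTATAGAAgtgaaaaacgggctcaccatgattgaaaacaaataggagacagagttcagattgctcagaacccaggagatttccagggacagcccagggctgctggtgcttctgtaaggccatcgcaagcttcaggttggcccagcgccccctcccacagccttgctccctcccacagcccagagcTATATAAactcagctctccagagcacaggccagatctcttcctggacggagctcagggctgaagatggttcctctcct
Sparc: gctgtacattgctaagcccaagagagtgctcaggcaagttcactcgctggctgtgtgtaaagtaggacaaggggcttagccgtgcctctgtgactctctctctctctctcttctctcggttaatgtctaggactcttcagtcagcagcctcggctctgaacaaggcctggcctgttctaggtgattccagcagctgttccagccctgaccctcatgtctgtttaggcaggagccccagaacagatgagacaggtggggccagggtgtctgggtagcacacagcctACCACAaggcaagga
Tnc: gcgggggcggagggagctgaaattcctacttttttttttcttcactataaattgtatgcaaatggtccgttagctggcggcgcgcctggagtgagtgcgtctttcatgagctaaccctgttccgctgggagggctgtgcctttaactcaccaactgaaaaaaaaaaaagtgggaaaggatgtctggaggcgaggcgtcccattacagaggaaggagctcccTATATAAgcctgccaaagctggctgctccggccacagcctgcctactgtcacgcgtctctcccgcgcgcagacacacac
Thbs4: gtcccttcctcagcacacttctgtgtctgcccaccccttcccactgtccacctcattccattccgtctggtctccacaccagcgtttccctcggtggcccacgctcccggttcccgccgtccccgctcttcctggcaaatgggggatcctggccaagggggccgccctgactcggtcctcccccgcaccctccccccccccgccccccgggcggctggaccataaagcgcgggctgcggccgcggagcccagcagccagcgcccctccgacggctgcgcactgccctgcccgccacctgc
The letters TATATAA began at position -28 from the start in the Postn window and at -29 in the Tnc window, and the Postn window also held TATAGAA at -212. The Sparc window held ACCACA, the RUNX core on the opposite strand, at position 36 after the start, and the Thbs4 window held none of the 4 motifs. Of all 32851 windows in the table, 11.3% held TATANAA, 16.8% TGTGGT, 7.81% TGANTCA and 1.79% TGACGTCA. G and C made up 72% of the Thbs4 window, against 53% of the Postn, 54% of the Tnc and 55.3% of the Sparc window. Postn and Tnc have 2 listed windows each, and the window printed is the one that held a TATA-type match. The shares over all windows, which were not picked in this way, are therefore not a like comparison. The window of Vtn, a gene that was not called, is not printed and also held a TATA-type match, TATAAAA at -135. The motifs were chosen with the changes of these genes known, and a match is a run of letters and not a measured binding site.

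Signals are the authors' deposited linear intensities, and a level is compared only within a probe set, since probes differ in brightness. A log2 change is the endosteal minus the central mean of log2(signal + 16), a scale that understates the change of dim probe sets. A fold difference is that log2 change written as a ratio, and is not the ratio of the signals listed. Probe sets were called with limma at an adjusted p (Benjamini-Hochberg, over all 45037 probe sets) under 0.05, and a gene was called by its brightest probe set. Array medians were between 120 and 131 in endosteal and between 97.2 and 106 in central RNA, and signals below 16 made up 15.9% to 20.1% of an array. Arrays correlated at 0.927 to 0.929 within endosteal RNA, 0.964 to 0.966 within central RNA and 0.912 to 0.926 between the regions. The median change of all genes was 0.10. Centring each array on its median moved the median change of all probe sets to -0.18, from 0.08 as deposited.

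Of the 10 genes, Postn, Sparc, Tnc, Thbs4 and Sparcl1 were called higher in endosteal RNA by their brightest probe set and 0 were called lower, with a background of 4.67% of all genes higher and 1.52% lower. By probe set, 9 of 18 were called higher, against 3.21% of all probe sets, and 0 lower, against 1.29%. At least 1 probe set was called for 7 genes, since a dimmer probe set of Thbs1 and of Thbs2 passed. Arrays of the regions did not overlap for 13 of the 18, with endosteal RNA on top for 12 (background 17.8%) and below for 1 (background 13.6%). The median change was 2.37 over the 10 genes, beside 0.10 for all genes.

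Both regions came from the same 3 mice, and each region has arrays lettered A to C, but the labels do not state that a letter marks 1 mouse. With the letter as a block in the limma fit, 0 of 45037 probe sets (0%) and so 0 of the 18 passed, although 5532 probe sets were higher and 3693 lower at an unadjusted p under 0.05, among them 13 of the 18. That fit keeps 2 residual degrees of freedom, against 4 without the block. The 9 called probe sets then had adjusted p from 0.0775 (Postn) to 0.135 (Thbs1). With the letter as a random block, 9 of the 18 passed, all higher, with a background of 3.75% of probe sets higher and 1.69% lower.

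**Figure D1:**
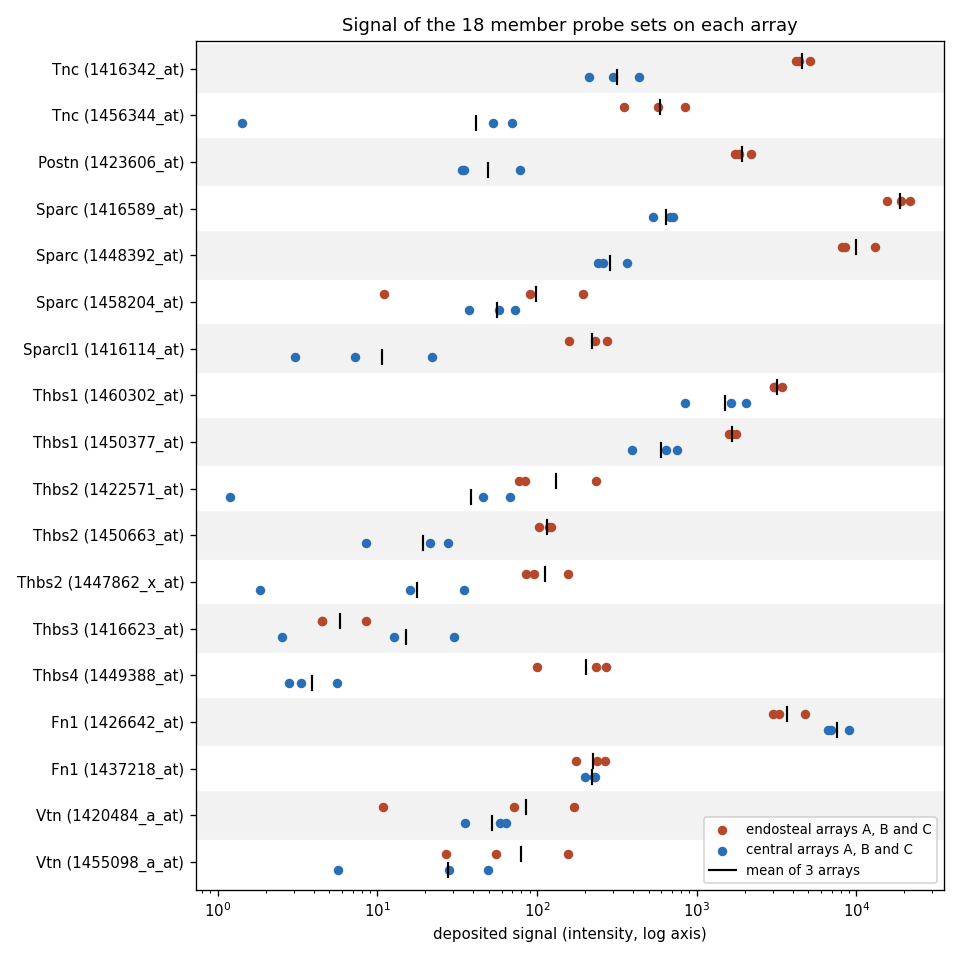
Deposited signal (log axis) of each of the 18 probe sets on the 3 endosteal arrays and the 3 central arrays, with a bar at the mean of each region. For Postn every endosteal signal was 1738 or more and every central signal 78.6 or less, while Fn1 probe set 1426642_at was lower on all endosteal arrays and the Vtn probe sets overlapped.

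Sparc, the gene of SPARC, was represented by 3 probe sets, and the brighter 2 rose by similar amounts. Probe set 1416589_at had signals of 21635, 15493 and 19065 on endosteal arrays A to C, against 536, 685 and 715 on central arrays A to C. Its log2 change was 4.82 (SE 0.21, 95% confidence interval 4.32 to 5.33, limma adjusted p = 0.00333), a 28.3-fold difference. Probe set 1448392_at had signals of 13109, 8110 and 8536 on endosteal arrays, against 243, 259 and 364 on central arrays. Both read highest on endosteal array A, and the regions lay far apart. The second probe set changed by 5.01 (SE 0.27, adjusted p = 0.00342). The dimmest, 1458204_at, had signals of 90.1, 194 and 11.0 on endosteal arrays and 58.0, 37.6 and 72.5 on central arrays. Its regions overlapped, and at 0.26 (95% confidence interval -1.59 to 2.10, adjusted p = 0.873) it did not pass. The mean of the 3 probe sets, which includes 1458204_at, changed by 3.36 (adjusted p over genes 0.00479).

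Sparcl1 encodes SPARC-like 1, or hevin, a relative of SPARC best known from brain and vessels. Its probe set had signals of 275, 230 and 159 on endosteal arrays, against 7.24, 3.06 and 21.9 on central arrays. All 3 central signals stood in the dimmest 25% of their array, so the size of the change rests on dim central signals. The log2 change was 3.18 (SE 0.33, adjusted p = 0.0124), and it ran from 1.92 with a pseudocount of 64 to 4.57 with a pseudocount of 1. Sparcl1 did not pass without central array A (adjusted p = 0.0621) or without central array B (0.0563).

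Periostin, the product of Postn, binds collagen and integrins and marks cells of the periosteum, tendon and periodontal ligament. The Postn probe set had signals of 1852, 1738 and 2196 on endosteal arrays, against 34.0, 34.7 and 78.6 on central arrays. The lowest endosteal signal stood well clear of the highest central one. The log2 change was 4.96 (SE 0.30, 95% confidence interval 4.23 to 5.69, adjusted p = 0.00374), a 31.1-fold difference.

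Tnc, whose product tenascin C is a large hexameric glycoprotein of developing, healing and mechanically loaded tissue, rose by both of its probe sets. Probe set 1416342_at had signals of 5160, 4184 and 4404 on endosteal arrays, against 211, 298 and 436 on central arrays. Its log2 change was 3.85 (SE 0.28, adjusted p = 0.00603). Probe set 1456344_at read 576, 352 and 847 on endosteal arrays and 1.43, 52.8 and 69.6 on central arrays, without overlap. It changed by 3.61 (SE 0.67, adjusted p = 0.0462), and this dimmer probe set missed the threshold whenever 1 array was left out (adjusted p from 0.0690 to 0.113). Postn, Sparc and the brighter Tnc probe set passed without any 1 of the 6 arrays, with adjusted p up to 0.0418.

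The 4 thrombospondin genes differed among themselves. Thbs4, whose product is found in tendon, muscle and heart, had signals of 273, 234 and 99.9 on endosteal arrays, against 5.59, 2.79 and 3.31 on central arrays. Every central signal lay in the dimmest 25% of its array, and endosteal array C read less than the other 2 endosteal arrays. The log2 change was 3.35 (SE 0.37, adjusted p = 0.0140), ran from 1.91 to 5.29 over the pseudocounts of 64 and 1, and did not pass without endosteal array B (0.0504) or without central array A, B or C (0.0638, 0.0658 and 0.0549).

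Thbs1 encodes thrombospondin 1, an inhibitor of vessel growth that also activates latent TGF-beta. Its brighter probe set, 1460302_at, had signals of 3059, 3409 and 3069 on endosteal arrays, against 842, 2023 and 1641 on central arrays. The regions did not overlap, but central array A read less than the other central arrays, and the log2 change of 1.16 (SE 0.34, 95% confidence interval 0.32 to 2.00) did not pass (adjusted p = 0.119). Without central array A the change was 0.80 (adjusted p = 0.152). Probe set 1450377_at had signals of 1754, 1677 and 1598 on endosteal arrays and 394, 646 and 757 on central arrays. It changed by 1.51 (SE 0.27, adjusted p = 0.0399), a 2.85-fold difference, and missed the threshold without any 1 of the 6 arrays (adjusted p from 0.0693 to 0.113). Central array A was again the lowest. The mean of both probe sets passed when genes were tested (1.34, adjusted p = 0.0442, with 6.11% of genes higher and 2.73% lower by that measure).

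Thbs2, the gene of thrombospondin 2, also an inhibitor of vessel growth, was measured by 3 dim probe sets that all read higher on every endosteal array. Probe set 1450663_at had signals of 119, 103 and 122 on endosteal arrays, against 27.6, 8.54 and 21.5 on central arrays. It rose by 1.93 (SE 0.25, adjusted p = 0.0205), with adjusted p from 0.0558 to 0.0669 when 1 array was left out. Probe set 1447862_x_at, at 157, 85.6 and 95.7 on endosteal and 16, 1.85 and 35.1 on central arrays, differed by 2.02 (adjusted p = 0.0619). The brightest, 1422571_at, read 84.1, 235 and 76.8 on endosteal and 1.20, 45.8 and 68.0 on central arrays and differed by 1.57 (SE 0.70, adjusted p = 0.260). The mean of the 3 changed by 1.84 (adjusted p over genes 0.0199).

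Thbs3, a thrombospondin of cartilage and bone, was dim everywhere. Its signals were 8.52, 4.48 and 4.49 on endosteal arrays, all in the dimmest 25% of their array, and 2.52, 12.7 and 30.4 on central arrays. The regions overlapped, and a log2 difference of -0.42 (95% confidence interval -1.28 to 0.44, adjusted p = 0.535) was not detectable as a change at this signal.

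**Figure D2:**
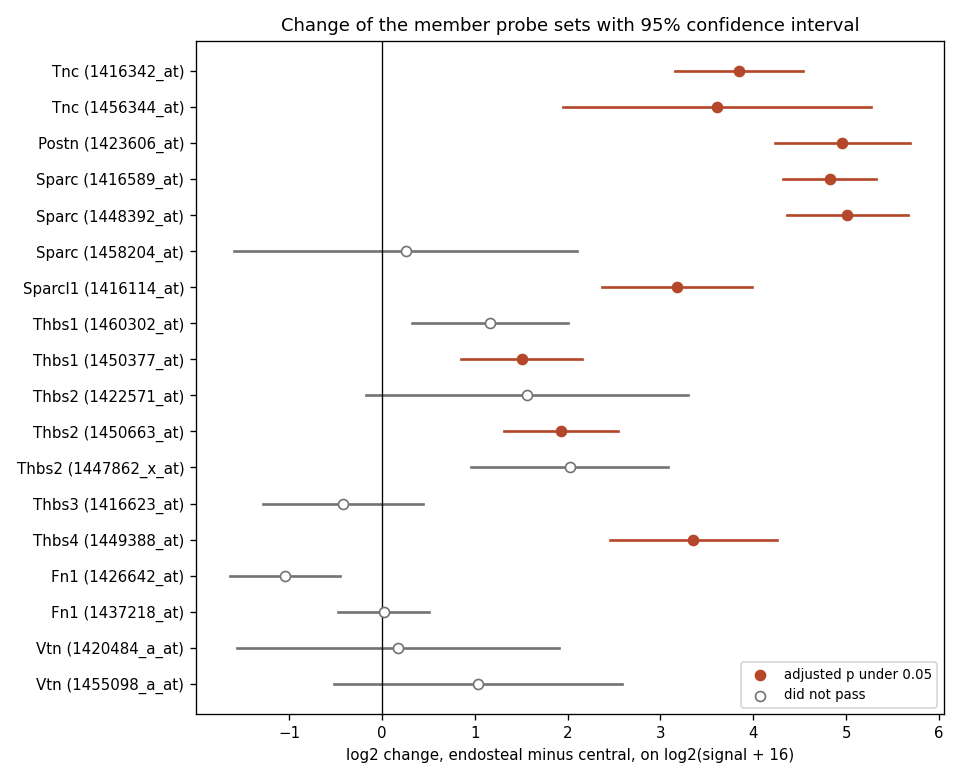
Log2 change (endosteal minus central) of the 18 probe sets with the 95% confidence interval of the limma fit, filled where the adjusted p was under 0.05. Postn and the brighter Sparc probe sets lay near 5, the Thbs1 and Thbs2 probe sets between 1.16 and 2.02, and 1426642_at of Fn1 at -1.04.

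Fn1, the gene of fibronectin, read lower in endosteal RNA by its brighter probe set, without passing, and about equal by its dimmer one. Probe set 1426642_at had signals of 4751, 3299 and 3015 on endosteal arrays, against 9007, 6610 and 6958 on central arrays. All 3 endosteal signals were below the lowest central one, and endosteal array A was the highest of its region, as central array A was of its own. The log2 difference was -1.04 (SE 0.24, 95% confidence interval -1.63 to -0.45), with an adjusted p of 0.0730 over all probe sets. It passed when 1 probe set per gene was tested and adjusted over 18193 genes (adjusted p = 0.0427, with 7.92% of genes higher and 4.02% lower by that rule). It also passed in 4 other alternatives (adjusted p from 0.00178 to 0.0409). The second probe set, 1437218_at, had signals of 265, 237 and 176 on endosteal arrays and 199, 229 and 232 on central arrays. Those regions overlapped, and the difference was 0.02 (95% confidence interval -0.47 to 0.51, adjusted p = 0.967). The mean of both probe sets was -0.51 (adjusted p = 0.154).

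Vtn, the gene of vitronectin, an adhesive protein of plasma that also holds plasminogen activator inhibitor 1, was dim and scattered. Probe set 1420484_a_at had signals of 72.0, 172 and 10.8 on endosteal arrays and 63.8, 35.5 and 58.6 on central arrays. Probe set 1455098_a_at had signals of 27.0, 157 and 55.6 on endosteal arrays and 5.64, 49.1 and 28.1 on central arrays. Both overlapped between the regions and read highest on endosteal array B. The log2 differences of 0.18 (95% confidence interval -1.56 to 1.91, adjusted p = 0.911) and 1.03 (95% confidence interval -0.52 to 2.59, adjusted p = 0.396) did not pass. Differences of this size were not detectable for Vtn at such a spread between arrays.

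Arrays of endosteal RNA spread unequally from gene to gene. Relative to the central mean, the brightest Sparc probe set stood at 5.04, 4.56 and 4.86 on endosteal arrays A to C on the log2 scale. Postn stood at 4.91, 4.82 and 5.15 and the brighter Tnc probe set at 4.02, 3.72 and 3.80. These 3 probe sets varied little between endosteal arrays. Thbs4 stood at 3.86, 3.66 and 2.54 and Sparcl1 at 3.50, 3.26 and 2.77, both lowest on array C. The contrast does not extend to every probe set of Sparc and Tnc. On endosteal arrays the dimmer Tnc probe set ran from 352 to 847 and Sparc probe set 1448392_at from 8110 to 13109. It does not cover central arrays either, where Postn ran from 34.0 to 78.6 and the brighter Tnc probe set from 211 to 436. The study's own measure, the log2 ratio of the mean signals, takes no pseudocount and gave 5.29 for Postn, 4.86 for Sparc, 3.86 for Tnc, 1.08 for Thbs1 and -1.03 for Fn1. It is not given for Thbs4 and Sparcl1, whose central signals all lay in the dimmest 25% of their array, so these genes have no exact ratio or rank.

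Markers of other tissues moved on the same arrays, where 4.67% of all genes were called higher and 1.52% lower. The 8 skeletal muscle markers were all called higher, with summed signals of 113983, 62115 and 57833 on endosteal arrays A to C against 316 to 611 on central arrays. Of 6 osteoblast markers 5 rose (sums of 63230 to 78012 in endosteal and 1571 to 2059 in central RNA), and of 8 fibroblast and tendon markers 5 rose (8392 to 12717 and 493 to 591). Muscle, tendon, bone and vessel cells all express some of the genes that rose. The part of each tissue in the rise of Sparc, Postn, Tnc, Thbs4 and Sparcl1 was not tested. In the fibroblast and tendon list, Col3a1, Lum, Dcn, Fmod and Pdgfra were the 5 called. Tnmd differed by 2.03 without overlap but did not pass (adjusted p = 0.119), and Scx (0.26, adjusted p = 0.828) and Mkx (0.50, adjusted p = 0.432) overlapped between the regions. For Thbs1, the 7 measured megakaryocyte and platelet markers summed to 95447, 114249 and 99870 on endosteal arrays and to 26032, 45292 and 51994 on central arrays A to C. They were lowest on central array A, as Thbs1 was, and 3 of the 7 were called higher. Their part in the Thbs1 difference was not tested. The 7 monocyte and macrophage markers, which stand beside Fn1, summed to 29723 to 33177 in endosteal and 24173 to 26275 in central RNA, sums to which Csf1r gave the most, with 2 called higher and 0 lower. Vcam1 and Mrc1 were the 2 called. The regions did not overlap for 4 of the 7 with endosteal RNA higher (background 17.8% of probe sets) and for 2 with it lower (13.6%). Without passing, Csf1r (0.37, adjusted p = 0.205) and Cd68 (0.48, adjusted p = 0.208) were among the higher. Ccr2 (-0.88, adjusted p = 0.0579) and Cx3cr1 (-1.18, adjusted p = 0.127) were the lower 2, also without passing. The part of these cells in the Fn1 difference was not tested. The 6 hepatocyte markers, which stand beside Vtn, summed to 123 to 210 in endosteal and 127 to 189 in central RNA, with 0 called, and Fga and Fgb lay in the dimmest 25% of every array. Of the other lists, endothelium had 5 of 8 higher (sums of 3224 to 3613 in endosteal and 908 to 1262 in central RNA). Pericytes and smooth muscle had 4 of 8 higher (6957 to 12130 and 2079 to 2756). Osteoclasts had 6 of 8 higher, cartilage 2 of 6 and neutrophils 1 of 6. B lymphocytes had 1 of 7 lower and erythroid cells 0 of 7 called.

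Of 27 measured receptors for these glycoproteins, 6 were called higher and 0 lower, with a background of 4.67% and 1.52% of all genes. The median change was 0.53 beside 0.10 for all genes. Sdc1, the heparan sulphate proteoglycan syndecan 1, rose by 1.43 (697 ± 43.1 in endosteal and 254 ± 66.1 in central RNA, SD, n = 3 arrays each, limma adjusted p = 0.0292). Itgav, the alpha V integrin chain that binds vitronectin, fibronectin and periostin, had signals of 3030, 2501 and 2361 on endosteal arrays, against 1128, 1031 and 1177 on central arrays. It rose by 1.22 (SE 0.17, adjusted p = 0.0227). Stab1, the scavenger receptor stabilin 1, which takes up SPARC, rose by 1.11 (adjusted p = 0.0308) and Itgb8, a partner of alpha V, by 1.07 (adjusted p = 0.0422), with all central Itgb8 signals in the dimmest 25% of their array. The partners of alpha V Itgb5 and Itgb1, named after their values were seen, rose by 0.99 (adjusted p = 0.0392) and 0.85 (adjusted p = 0.0463) and complete the 6. Itgb3 and Itgb6, also partners of alpha V and named in the same way, did not pass. They differed by 0.67 (adjusted p = 0.140) and 0.79 (adjusted p = 0.173). The alpha 5 chain Itga5, which pairs with beta 1 as the main fibronectin receptor, differed by -0.10 (adjusted p = 0.802), and Cd47, a thrombospondin 1 receptor, by -0.12 (adjusted p = 0.686); both were named after their values were seen. Each array that was left out cut the 6 calls among receptors to 0 or 1. Over all 45037 probe sets, calls higher then fell from 1444 to between 210 and 868.

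Of 39 other measured glycoproteins of the same kinds, 12 were called higher (background 4.67% of all genes) and 1 lower (background 1.52%), with a median of 0.84. Srpx2, which encodes a sushi repeat protein, rose by 3.68, Fbln5, which helps to assemble elastic fibres, by 3.08, Fstl1, a SPARC family member, by 2.87 and Tnxb, the gene of tenascin X, by 2.46 (limma adjusted p from 0.00535 to 0.0177 for these 4). The central signals of Srpx2 and Tnxb all lay in the dimmest 25% of their array, so the sizes of these changes depend on the pseudocount. Emilin2, an elastin-interface protein, fell by 1.12 (2729 ± 118 in endosteal and 5969 ± 890 in central RNA, SD, n = 3 arrays each, limma adjusted p = 0.0284). Among the closest relatives of the 10 genes, the tenascin genes Tnn and Tnr did not pass (adjusted p = 0.820 and 0.741), with Tnr in the dimmest 25% of every array, while Comp, the fifth thrombospondin, rose by 2.36 (adjusted p = 0.0204). Tgfbi, the closest relative of periostin, differed the other way from Postn, at -0.77 (4274 ± 409 in endosteal and 7293 ± 705 in central RNA, SD, n = 3 arrays each, limma adjusted p = 0.0608). Of other SPARC relatives, Spock1 differed by 0.07, Spock2 by -0.71, Spock3 by 0.55, Smoc1 by 0.48 and Smoc2 by 0.93. None of these passed (adjusted p from 0.371 to 0.975), and all overlapped between the regions. These relatives other than Tnxb and Fstl1 were named after their values were seen. Without 1 array, 3 to 8 of the 39 were called higher and 0 lower, beside 210 to 868 and 5 to 181 of all 45037 probe sets.

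Of 18 measured proteases, crosslinkers and partners, 7 were called higher (background 4.67% of all genes) and 3 lower (background 1.52%), with a median of 1.00. Ctsk, the collagenase cathepsin K of osteoclasts, rose by 5.57, Fap, a fibroblast serine protease, by 4.02, Lox, which crosslinks collagen, by 4.01 and Mmp2, gelatinase A, by 3.36 (limma adjusted p from 0.00333 to 0.0182 for these 4). Adam8, a metalloprotease of blood cells, fell by 1.38 and Tgfb1, the growth factor whose latent form thrombospondin 1 activates, by 1.12 (adjusted p = 0.0274). The third was Mmp9, gelatinase B, which fell by 1.01 (adjusted p = 0.0408) and was named after its value was seen. Without 1 array, 3 to 5 of the 18 were called higher and 0 lower, beside 210 to 868 and 5 to 181 of all 45037 probe sets.

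**Figure D3:**
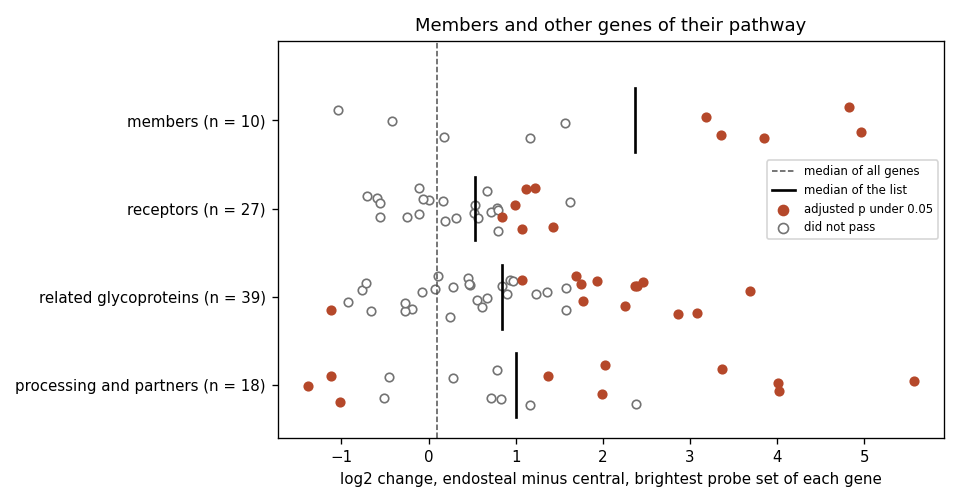
Log2 change (endosteal minus central) of the 10 glycoprotein genes and of the 3 lists of related genes by their brightest probe set, filled where the adjusted p was under 0.05. The bar is the median of each list (2.37, 0.53, 0.84 and 1.00) and the dashed line the median of all genes (0.10).

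The genes whose pattern over the 6 arrays lay closest to that of each called member were found by the Euclidean distance of log2 values, each centred on its own mean, among 9091 genes above the median level. With 2 regions and 6 arrays this mostly finds genes with a change of like size. Nearest to Tnc were Angpt4, Cdh11 and Gja1 (distances 0.28, 0.44 and 0.45). Nearest to Postn were Mmp13, Lum and Dmp1 (0.74, 0.80 and 0.94). Nearest to Sparc were Lum, Col11a1 and Dcn (0.45, 0.63 and 0.77). Nearest to Sparcl1 were Trdn, Fermt2 and Snai2 (0.30, 0.48 and 0.50), and nearest to Thbs4 were Myoz2, Fxyd1 and Mybpc1 (0.39, 0.56 and 0.64).

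**Figure D4:**
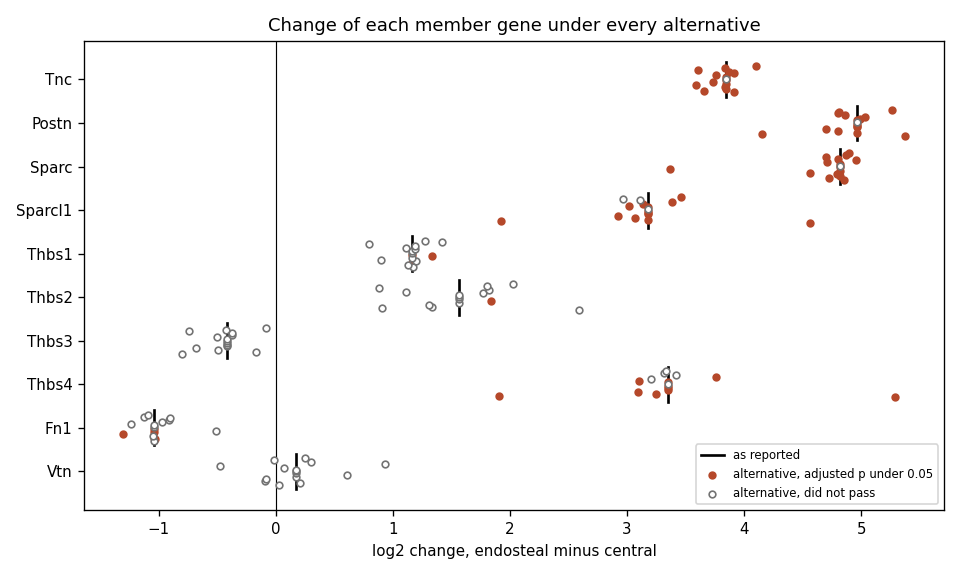
Log2 change (endosteal minus central) of each of the 10 genes as reported (bar) and under each alternative (points, filled where the adjusted p was under 0.05). Tnc stayed between 3.59 and 4.10, Sparcl1 ran from 1.92 to 4.57 and Thbs4 from 1.91 to 5.29, and Vtn lay on both sides of 0.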

How the data were processed

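RNA of 3 endosteal and 3 central samples was hybridised to Affymetrix mouse arrays, per the labels' protocols. The deposited values are linear intensities of 45101 probe sets. The summarisation software is not given in the sources used here. The mean after trimming 2% at each end was 500.003 on every array, as after scaling each to a common target. Few arrays and dim signals limit the precision.

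After 64 control probe sets were left out, 45037 were tested. The platform annotation, with symbols looked up in RefSeq by gene identifier (34741 of 34945 found), named 1 gene for 34945 probe sets, several for 932 and none for 9160. The limma package (version 3.58.1, R 4.3.3) was used for two-sided tests of log2(signal + 16) by lmFit and eBayes, in a model of region alone, with Benjamini-Hochberg adjustment. The procedure was tested on simulated arrays without a letter effect, with changes added only to probe sets above the median signal. That test therefore does not cover dim probe sets or pairing by letter. Arrays with the same letter had deviations from the region mean that correlated by 0.04 (A), 0.03 (B) and 0.01 (C) over all probe sets, and by 0.16 (A), 0.07 (B) and 0.04 (C) over those above the median signal. The block is reported because the regions share animals.

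The members, related lists and markers were chosen with earlier results of these data known. Text names all members, up to 4 called genes of a list in the direction most took, at most 2 in the opposite one, and the 3 genes nearest each called member. Other list genes and markers named were chosen after their values were seen. Alternatives were pseudocounts of 1 and 64, leaving out dim probe sets, quantile normalisation, centring, testing by gene, an intensity trend, the letter as a block and leaving out each array.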

Additional observations from a re-analysis of the deposited data

Results flagged for a closer look

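A probe set that the annotation gives to both Thbs1 and Pald1 belonged to no comparison above, because it names 2 genes, and it read higher in endosteal than in central RNA. Its signals were 8693, 9308 and 7280 on endosteal arrays A to C, against 3149, 5380 and 5411 on central arrays A to C. The log2 change was 0.89 (SE 0.27, 95% confidence interval 0.24 to 1.55), with a limma adjusted p of 0.123, and the regions did not overlap. Central array A was the lowest, as it was for both probe sets that name Thbs1 alone.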

How the results depend on the processing

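Of the 10 genes, Postn, Sparc and Tnc passed in 15 of 16 alternatives, Sparcl1 in 13 of 16 and Thbs4 in 10 of 15, each with the same direction in all. The exception for the first 3 was the replicate block. With the replicate block, 0 genes and 0 probe sets were called higher, and 0 of the 84 measured genes of the 3 related lists were called, against 29 without the block. Without 1 array, 3 to 5 genes and 4 to 6 probe sets were called higher, and 6 to 14 genes of the related lists. With a pseudocount of 1, 18 genes of those lists were called. Fn1 gave 1 gene and 1 probe set called lower, in place of 0, with a pseudocount of 64, without dim probe sets, with centred arrays and with an intensity trend, and 1 gene when 1 probe set per gene was tested. Thbs1 passed by its brightest probe set without dim probe sets (adjusted p = 0.0353), with an intensity trend (0.00859) and by the mean of its probe sets (0.0442), and Thbs2 by that mean (0.0199). Vtn, which passed in 0 alternatives, changed sign with quantile normalisation (-0.0907) and centred arrays (-0.0857), and ran from -0.47 to 0.93 when 1 array was left out. The cause of these shifts was not tested. Over all probe sets, calls were 1444 higher and 582 lower (71.3% higher), against 1179 and 1927 with centred arrays (38.0%), 2916 and 2725 without dim probe sets (51.7%), 3420 and 2913 with an intensity trend (54.0%), 857 and 232 with a pseudocount of 1 (78.7%) and 2382 and 1466 with a pseudocount of 64 (61.9%). Signals in the dimmest 25% of an array, as for Thbs3 on all 3 endosteal and 2 of the central arrays, hold little information on level. Dropping 1 array left 210 to 868 probe sets higher and 5 to 181 lower.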
